A study of Mus musculus with 12 samples.

Results

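The genes described here encode the proton pump, the proteases and the most abundant membrane proteins of the lysosome. They were chosen by name, as the genes whose symbol marks a subunit of the vacuolar proton pump (Atp6v0 or Atp6v1), a cathepsin with a single-letter name (Ctsg, which encodes a serine protease of neutrophil granules, was left out) or Lamp1 or Lamp2. The choice gave 39 genes of 19938 that have a transcript cluster of their own on the array, namely 8 subunits of the V0 sector and 13 of the V1 sector of the pump, 13 cysteine cathepsins, 3 aspartic or serine cathepsins and 2 LAMP genes. A transcript cluster is the set of probes that reads the transcripts of a gene. Where a gene had several clusters, which was the case for 3 of the 39, the cluster with the highest mean signal was used. Another 4 clusters that name Cts3 and Ctsm together were left out, and Atp6v0c, the proteolipid subunit of V0, was not analysed here. Tcirg1 also encodes an a subunit of V0, but its symbol does not match the choice by name. It was listed with accessory factors of the pump and not with the 39 genes.

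The vacuolar ATPase acidifies lysosomes, phagosomes and endosomes. Its V1 sector in the cytosol hydrolyses ATP, and the rotation this drives moves protons through the V0 sector in the membrane. Cathepsins are proteases of this acid compartment, most of them cysteine proteases, while LAMP1 and LAMP2 are heavily glycosylated proteins that line its membrane. In neutrophils, which take up and degrade immune complexes and microbes, cathepsin C also activates the serine proteases that are stored in granules.

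Neutrophils of 2 genotypes were compared on 2 surfaces in the study, which asked how the signalling adaptor CARD9 shapes the gene expression that immune complexes induce. The 4 groups were Card9-/- neutrophils on immobilized immune complexes (IC), Card9-/- neutrophils on the control surface, wild-type neutrophils on IC and wild-type neutrophils on the control surface, all kept there for 4 h. Immune complexes were made by adding an antibody against human serum albumin to a surface coated with that albumin, and the control surface lacked the antibody. Each of 3 experiments, performed at separate times, held all 4 groups, which gives 3 arrays per group and 12 in all.

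Card9-/- mice carried the conventional Card9tm1Jrld knockout mutation in both copies in every cell. Mutant mice had been backcrossed to C57BL/6 over at least 6 generations. The wild-type C57BL/6 mice came from other suppliers and are not described as littermates. The labels call the cells Ly6G+ bone marrow neutrophils, and the methods describe an isolation by density gradient and not by a sort. The methods give the mice as male and female and aged 2 to 6 months, without tying an age or a sex to a sample, and the number of mice per sample was not found in the labels or methods. Adherent and nonadherent cells were lysed together, and total RNA was hybridized to an Affymetrix mouse gene array. All values below are log2 signals, so that a difference of 1 means a fold of 2. An array has no depth of reading, and it is the 3 arrays per group that limit the precision.

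Card9 itself followed the labels on every array. Its log2 signal was 6.42, 6.00 and 5.56 in Card9-/- neutrophils on IC in experiments 1, 2 and 3 and 6.39, 5.94 and 5.70 in those on the control surface, against 8.08, 8.21 and 8.50 in wild-type neutrophils on IC and 8.42, 8.43 and 8.75 on the control surface. The lowest wild-type value thus lay above the highest Card9-/- value. The 12 neutrophil markers had a mean log2 signal of 12.26 to 12.53 on the Card9-/- arrays and of 12.35 to 12.51 on the wild-type arrays. Experiment 3 stood apart in scale, with array medians of 5.27 to 5.39, against 5.70 to 5.75 in experiment 1 and 5.86 to 5.93 in experiment 2. Differences are therefore taken within an experiment, and each result that rests on 1 experiment is given with that experiment's values.

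Of the 39 genes, 28 had a mean signal above that of the median cluster. These were 6 V0 subunits, 9 V1 subunits, 8 cysteine cathepsins, all 3 aspartic or serine cathepsins and both LAMP genes. The 11 others were Atp6v0a4, Atp6v0d2, Atp6v1b1, Atp6v1c2, Atp6v1e2, Atp6v1g3, Ctsf, Ctsj, Ctsk, Ctsq and Ctsr. Several of these are known for other tissues, such as the kidney (Atp6v0a4, Atp6v1b1, Atp6v1g3), the osteoclast (Atp6v0d2, Ctsk) and the rodent placenta (Ctsj, Ctsq, Ctsr). Probes of different genes differ in brightness, so levels were not ranked between genes.

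Many genes of lysosomal biogenesis carry in their promoters the E-box CACGTG, within a longer element that transcription factor EB and its relatives bind. The promoter windows of RefSeq (GRCm38.p6), which run from 250 bases before a gene's start to 50 bases after it, hold 29 of the 39 genes. CACGTG, a palindrome that reads alike on both strands, occurred in 8 of these 29 windows, compared with 7.24% of all 27025 windows. The 8 genes were Ctsd, Lamp1, Atp6v0b, Atp6v0d1, Ctsl, Atp6v1a, Atp6v0e and Ctsf. The longer form GTCACGTG, searched on both strands and always overlapping the E-box, occurred in the first 4 of them, compared with 2.33% of all windows. The AP-1 motif TGANTCA was found in 1 window, that of Atp6v0a1, compared with 7.93% of all, and the kappa-B consensus in that of Ctso, compared with 4.35% of all. The windows printed here are the 4 with the longer form, which link the protease, membrane and pump genes, and that of Ctsz, the gene with the largest genotype difference of the 39. Capitals mark each CACGTG.
Ctsd (chr7:142387778-142388077, strand -): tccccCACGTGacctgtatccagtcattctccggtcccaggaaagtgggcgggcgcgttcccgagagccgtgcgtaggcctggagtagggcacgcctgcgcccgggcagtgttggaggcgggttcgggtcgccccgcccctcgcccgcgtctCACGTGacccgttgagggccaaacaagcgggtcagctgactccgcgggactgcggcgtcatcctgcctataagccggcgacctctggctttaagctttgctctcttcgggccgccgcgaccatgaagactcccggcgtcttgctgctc
Lamp1 (chr8:13158911-13159210, strand +): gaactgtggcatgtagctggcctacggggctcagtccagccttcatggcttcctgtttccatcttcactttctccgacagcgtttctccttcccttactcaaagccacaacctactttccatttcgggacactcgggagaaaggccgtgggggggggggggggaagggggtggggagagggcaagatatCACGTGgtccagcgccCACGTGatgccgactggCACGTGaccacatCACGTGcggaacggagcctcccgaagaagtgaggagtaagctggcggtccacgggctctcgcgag
Atp6v0b (chr4:117887280-117887579, strand -): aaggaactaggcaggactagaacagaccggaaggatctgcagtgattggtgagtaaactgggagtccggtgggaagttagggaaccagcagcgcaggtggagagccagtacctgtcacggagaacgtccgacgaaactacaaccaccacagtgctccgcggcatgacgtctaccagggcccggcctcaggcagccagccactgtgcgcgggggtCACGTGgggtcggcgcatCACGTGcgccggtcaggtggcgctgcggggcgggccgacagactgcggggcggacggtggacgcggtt
Atp6v0d1 (chr8:105566015-105566314, strand -): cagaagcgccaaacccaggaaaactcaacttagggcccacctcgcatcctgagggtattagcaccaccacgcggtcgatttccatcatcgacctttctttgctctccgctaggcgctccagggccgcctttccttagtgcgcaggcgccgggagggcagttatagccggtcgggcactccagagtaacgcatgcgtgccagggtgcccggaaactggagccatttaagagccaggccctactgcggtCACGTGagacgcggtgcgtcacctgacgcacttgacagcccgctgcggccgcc
Ctsz (chr2:174438990-174439289, strand -): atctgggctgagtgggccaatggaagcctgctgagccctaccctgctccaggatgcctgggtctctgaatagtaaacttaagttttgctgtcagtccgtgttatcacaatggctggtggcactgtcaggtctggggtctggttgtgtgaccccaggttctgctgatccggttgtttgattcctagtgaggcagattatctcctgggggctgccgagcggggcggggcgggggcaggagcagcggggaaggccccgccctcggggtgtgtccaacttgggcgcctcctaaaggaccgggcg

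In the Lamp1 window 4 copies of CACGTG lay 61, 45, 28 and 15 bases before the start. Ctsd held 2 copies, 245 and 98 bases before the start, and Atp6v0b held 2, at 36 and 18 bases. Atp6v0d1 had a copy 3 bases before the start. The window of Ctsz contained neither the E-box nor the AP-1 motif nor the kappa-B consensus. A match describes the letters of the window and says nothing of whether a factor binds there in neutrophils.

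Cathepsin Z, a carboxypeptidase of the cysteine cathepsins, had the largest decrease in Card9-/- neutrophils. On IC its log2 signal was 10.45, 10.73 and 10.26 in Card9-/- neutrophils in experiments 1, 2 and 3, against 11.53, 11.67 and 10.77 in wild-type neutrophils. All 3 Card9-/- values lay below all 3 wild-type values. On the control surface Ctsz was at 10.19, 10.58 and 10.45 in Card9-/- neutrophils, against 11.10, 11.06 and 10.64 in wild-type neutrophils, again with no overlap between the genotypes. The share of all clusters without such overlap was not counted. The difference was negative in 6 of 6 pairs of arrays and averaged -0.69 ± 0.11 (SE) over both surfaces, a decrease to 0.622 of the wild-type signal (95% confidence interval -0.94 to -0.44, limma adjusted p = 0.0314).

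Ctsz was the only one of the 39 genes whose mean genotype difference passed the threshold of adjusted p under 0.05, which 0.529% of all 28944 clusters passed. On a single surface no member passed. The difference of Ctsz was -0.84 ± 0.16 on IC (adjusted p = 0.0797) and -0.53 ± 0.16 on the control surface (adjusted p = 0.942), where 0.162% and 0.038% of all clusters passed. The size of the difference varied between experiments, with means over both surfaces of -0.99, -0.71 and -0.35 in experiments 1, 2 and 3. Without experiment 1 the difference was -0.53 (adjusted p = 0.288) and without experiment 2 it was -0.67 (adjusted p = 0.358). It was -0.85 (adjusted p = 0.0144) without experiment 3. On the control surface alone it was -0.34 without experiment 1.

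**Figure D1:**
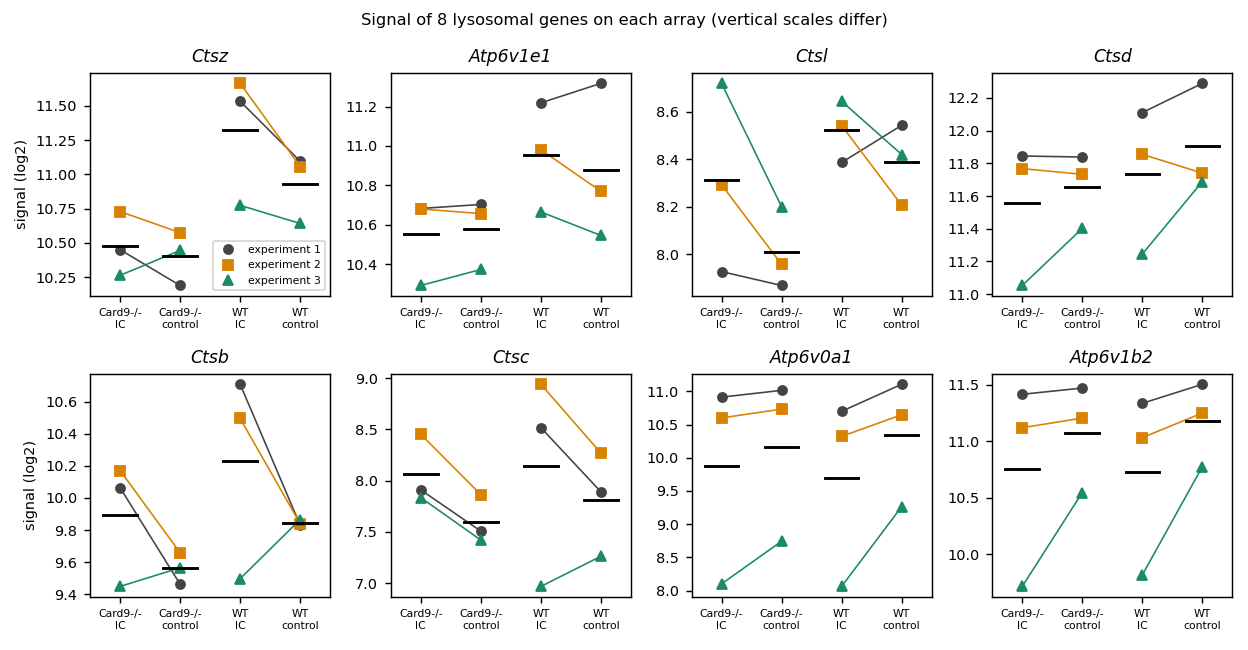
Log2 signal (vertical axis, a separate scale for each gene) of 8 lysosomal genes in Card9-/- and wild-type (WT) neutrophils on IC and on the control surface. Symbols are single arrays coloured by experiment, lines join the IC and control arrays of a genotype in an experiment, and black bars are means of 3 arrays. Every Card9-/- symbol of Ctsz lies below every wild-type symbol on the same surface, while the values of Atp6v0a1 and Atp6v1b2 in experiment 3 lie far below those of experiments 1 and 2.

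Markers of some other cell types lay mostly on the same side of 0 in the genotype difference, by amounts that varied between experiments. In the mean over both surfaces, 11 of 12 monocyte and macrophage markers were lower in Card9-/- samples, with a median difference of -0.12 (-0.20, -0.01 and -0.26 in experiments 1, 2 and 3) and none past the threshold. Their mean log2 signal was 5.36 to 6.15 on the Card9-/- arrays and 5.58 to 6.22 on the wild-type arrays. All 10 B cell markers lay above 0 in the same comparison, by a median of 0.48 (1.06, -0.01 and 0.44 by experiment), as did all 12 markers of eosinophils, basophils and mast cells, by a median of 0.30 (-0.16, 0.09 and 0.91). None of these markers passed the threshold either. Of all clusters, 46.5% lay below 0 and 53.5% above it. The medians of the dendritic cell, osteoclast, T and NK cell and erythroid markers were -0.02, -0.01, 0.10 and -0.09. The mean signal of the B cell markers was 5.26 to 8.36 on the Card9-/- arrays and 5.29 to 7.75 on the wild-type arrays, and that of the eosinophil, basophil and mast cell markers was 6.81 to 7.77 on the Card9-/- arrays and 6.60 to 7.14 on the wild-type arrays. An array signal has no true zero, so absence of a marker cannot be read from it. In experiment 2 Ctsz differed by -0.94 on IC and by -0.48 on the control surface. The monocyte, B cell and eosinophil lists had medians of -0.01, -0.01 and 0.09 in that experiment. A list median does not describe its single markers. Over all experiments, the monocyte and macrophage markers ranged from -0.92 to 0.34 on IC. The part of other cells in the genotype differences was not tested. Fewer cells of a type and less RNA per cell cannot be told apart in these bulk samples.

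The other cysteine cathepsins differed less between the genotypes. Cathepsin L, an endopeptidase, had log2 signals of 7.87, 7.96 and 8.20 in Card9-/- neutrophils on the control surface in experiments 1, 2 and 3, against 8.54, 8.21 and 8.42 in wild-type neutrophils. The genotypes did not overlap there, but only just, with the highest Card9-/- value at 8.201 and the lowest wild-type value at 8.207. The difference was -0.38 ± 0.15 (adjusted p = 0.954), or -0.23 without experiment 1. On IC Ctsl was at 7.93, 8.29 and 8.72 in Card9-/- neutrophils, against 8.39, 8.54 and 8.64 in wild-type neutrophils, where the groups overlapped and experiment 3 went the other way. Cathepsin B, which cleaves proteins internally and from their ends, was lower in Card9-/- neutrophils in 6 of 6 pairs, by 0.31 on average, without passing the threshold (adjusted p = 0.533). An annotation in the study also gives the cluster of Ctsb the name Fdft1, which makes the gene behind its signal less certain.

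Cathepsin C, the activator of granule serine proteases, was an example of a gene whose genotype difference rested on the experiment. It was lower in Card9-/- neutrophils by 0.61 and 0.49 on IC and by 0.38 and 0.41 on the control surface in experiments 1 and 2. In experiment 3 it was higher in Card9-/- neutrophils by 0.87 on IC and by 0.16 on the control surface. The mean difference was -0.14, and it became -0.47 (adjusted p = 0.0415) when experiment 3 was left out. It was 0.03 without experiment 1 and 0.01 without experiment 2. Ctsh, an aminopeptidase, lay above 0 in 5 of 6 pairs, at 0.11 on average.

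Cathepsin D, the main aspartic protease of lysosomes, had log2 signals of 11.84, 11.77 and 11.05 in Card9-/- neutrophils on IC, against 12.11, 11.85 and 11.25 in wild-type neutrophils. On the control surface it was at 11.84, 11.73 and 11.40 in Card9-/- neutrophils, against 12.29, 11.74 and 11.69 in wild-type neutrophils. Every pair had the lower value in Card9-/- neutrophils, although the ranges of the groups overlapped, and the mean difference was -0.21 ± 0.09 (adjusted p = 0.466). Cathepsin E, an aspartic protease of endosomes, averaged a larger difference of -0.33 but was higher in Card9-/- neutrophils in both pairs of experiment 2. The serine carboxypeptidase Ctsa differed by -0.03, Lamp1 by -0.13 and Lamp2 by 0.00.

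Among the pump genes, Atp6v1e1, a subunit of the peripheral stalks that hold V1 to V0, had the largest mean genotype difference over both surfaces. Its log2 signal on IC was 10.68, 10.68 and 10.29 in Card9-/- neutrophils, against 11.22, 10.98 and 10.66 in wild-type neutrophils. On the control surface it was 10.70, 10.66 and 10.37 in Card9-/- neutrophils, against 11.32, 10.77 and 10.55 in wild-type neutrophils. All 6 pairs were lower in Card9-/- neutrophils, with overlap between the genotypes on both surfaces, and the mean difference was -0.35 ± 0.08, a decrease to 0.783 of the wild-type signal (adjusted p = 0.11). Without experiment 1 it was -0.24, and on the control surface alone it was then -0.14. Atp6v1a, the catalytic subunit of V1, differed by -0.24, mostly through experiment 1 (-0.59, -0.12 and -0.0014 by experiment). Of the V0 subunits, the membrane subunit Atp6v0a4 lay lower in Card9-/- neutrophils on IC in all 3 experiments, by 0.16 (adjusted p = 0.663), at signals of 5.31, 5.70 and 4.60 against 5.51, 5.89 and 4.68 in wild-type neutrophils. That gene is among the 11 at or below the median cluster.

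Across the list, more genes lay below 0 than above it in Card9-/- neutrophils. On the control surface 32 of 39 genes (82.1%) were below 0, with a median of -0.10, where 42.6% of all clusters were below 0 and their median was 0.03. On IC the count was 28 of 39 (71.8%), with a median of -0.07, where 53.6% of all clusters were below 0 and their median was -0.01. The 28 genes above the median cluster gave 25 and 20 below 0 on the control surface and on IC, where 47% and 45.6% of clusters of that brightness were below 0. The median over the 39 genes in the mean of both surfaces was -0.15, -0.02 and -0.07 in experiments 1, 2 and 3. With all experiments, 7 of 39 genes lay above 0 on the control surface and 11 on IC. Without experiment 1 these counts were 15 and 14, with medians of -0.07 and -0.05. They were 7 and 11 without experiment 2, and 9 and 11 without experiment 3. By role, the V1 subunits had 11 of 13 genes below 0 on each surface, the V0 subunits 5 of 8 on IC and 6 of 8 on the control surface, and the cysteine cathepsins 9 of 13 on IC and 10 of 13 on the control surface.

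Single differences in the same direction were counted as well. On the control surface 13 genes were lower in Card9-/- neutrophils in all 3 experiments and 2 were higher, which is 33.3% and 5.13% of the 39, beside 12.8% and 18% of all clusters. On IC 9 were lower and 5 were higher, which is 23.1% and 12.8%, beside 15.4% and 13.5% of all clusters. In all 6 pairs 5 genes were lower (Ctsz, Atp6v1e1, Ctsd, Ctsb and Atp6v1c2) and none was higher, beside 4.28% and 3.48% of all clusters. At an unadjusted limma p under 0.05 there were 3 genes on the control surface, 2 on IC and 5 in the mean of both surfaces, beside 4.64%, 9.13% and 10.1% of all clusters. These counts are 7.69%, 5.13% and 12.8% of the 39 genes, shares near the background.

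**Figure D2:**
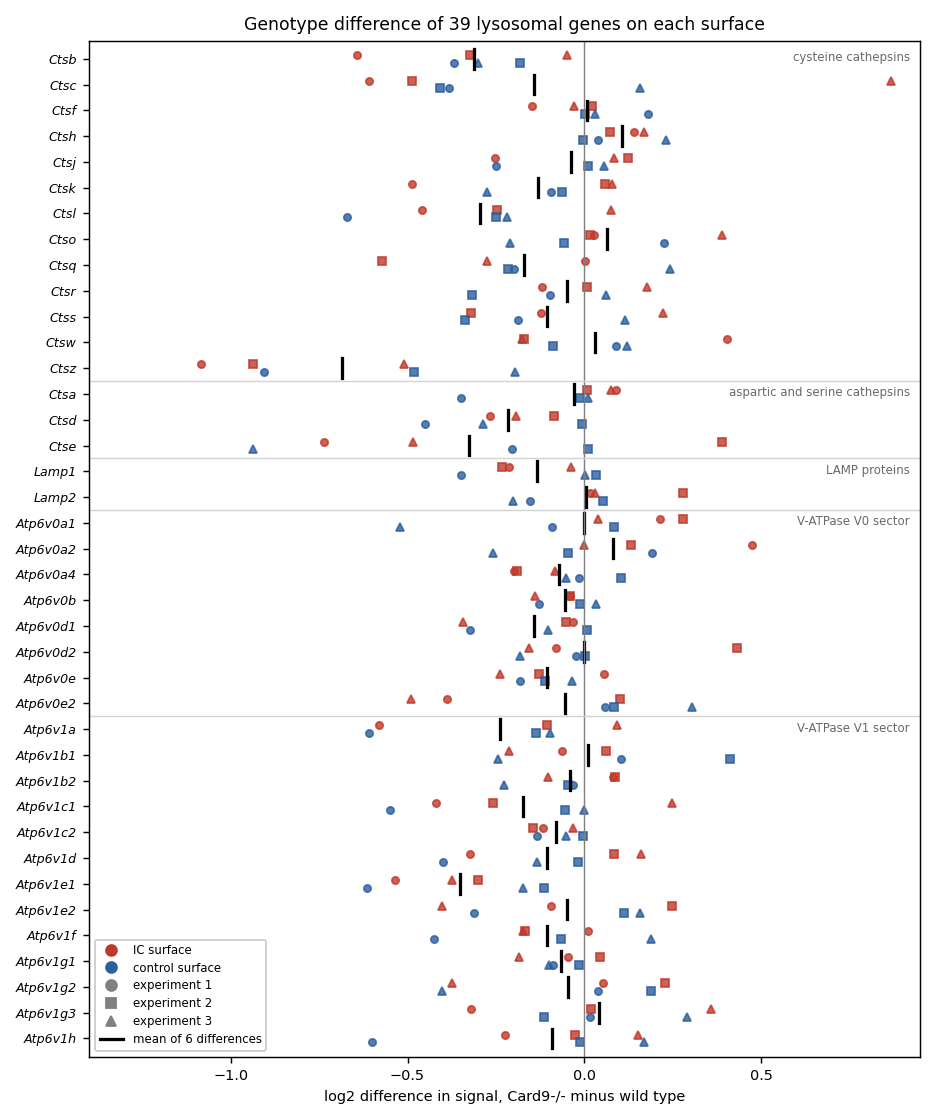
Log2 difference between Card9-/- and wild-type neutrophils (horizontal axis) for each of the 39 genes, grouped by role. Symbols are pairs of arrays of an experiment on IC (red) or on the control surface (blue), shaped by experiment, and black bars are means of 6 differences. The bar of Ctsz at -0.69 lies farthest to the left, and 30 of 39 bars lie below 0.

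By limma, immune complexes changed none of the 39 genes past the threshold, in Card9-/- neutrophils, in wild-type neutrophils or in the mean of both genotypes. The same threshold was passed by 0% of all clusters within Card9-/- and within wild-type neutrophils and by 0.0104% of them, or 3 clusters, in the mean. At an unadjusted p under 0.05 no gene of the list responded in Card9-/- neutrophils, beside 3.01% of all clusters. There were 7 such genes in wild-type neutrophils (17.9%, beside 9.59% of all clusters) and 9 in the mean of both genotypes (23.1%, beside 9.01%). Of the 28 brighter genes, 14.3% did so in wild-type neutrophils and 17.9% in the mean, beside 12.1% and 12.5% of the clusters above the median brightness. The median IC response over the 39 genes was -0.03 in Card9-/- neutrophils and 0.02 in wild-type neutrophils, beside -0.01 and 0.04 over all clusters.

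In wild-type neutrophils and in the mean of both genotypes, the largest decrease on IC among the 39 genes was that of Atp6v0a1, the a subunit that anchors V0 and carries its proton path. In Card9-/- neutrophils its log2 signal was 10.91, 10.60 and 8.10 on IC in experiments 1, 2 and 3, against 11.01, 10.73 and 8.74 on the control surface. In wild-type neutrophils it was 10.70, 10.32 and 8.06 on IC, against 11.11, 10.65 and 9.26 on the control surface. It was lower on IC in all 6 pairs, by 0.29 ± 0.18 in Card9-/- neutrophils (adjusted p = 1.00) and by 0.64 ± 0.18 in wild-type neutrophils (adjusted p = 0.413). Experiment 3 contributed the most, with -0.64 in Card9-/- and -1.20 in wild-type neutrophils, and the mean over both genotypes was -0.24 without that experiment and -0.47 with it (adjusted p = 0.378). Without it the difference was -0.12 in Card9-/- and -0.37 in wild-type neutrophils.

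Atp6v1b2, the nucleotide-binding B subunit found in most tissues, followed a like course. Its signal was 11.42, 11.12 and 9.72 on IC and 11.47, 11.21 and 10.55 on the control surface in Card9-/- neutrophils. In wild-type neutrophils it was 11.34, 11.03 and 9.82 on IC, against 11.50, 11.25 and 10.78 on the control surface. The mean response was -0.39 ± 0.13 (adjusted p = 0.455), and it was -0.13 without experiment 3. Atp6v1d, a subunit of the rotor, was lower on IC by 0.49 in Card9-/- and by 0.78 in wild-type neutrophils in experiment 3. In experiments 1 and 2 its differences were 0.01 and 0.05 in Card9-/- and -0.06 and -0.05 in wild-type neutrophils.

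Among the V0 subunits, Atp6v0a2 and Atp6v0e2 also had small unadjusted p-values on IC. Atp6v0a2, another a subunit of V0, was lower on IC in wild-type neutrophils, at 7.87, 8.16 and 7.08 on IC against 8.26, 8.37 and 7.63 on the control surface (difference -0.39 ± 0.13, adjusted p = 0.438). The other cluster of the same gene went the opposite way, with a difference of 0.25, so the direction of Atp6v0a2 depends on the probes. For Atp6v1f and Atp6v1g1, small subunits of V1, both clusters gave like differences. Atp6v0e2, a small membrane subunit, was at 6.36, 6.48 and 5.13 on IC in Card9-/- neutrophils, against 6.49, 6.52 and 5.87 on the control surface, and its difference of -0.31 ± 0.14 (adjusted p = 1.00) was -0.09 without experiment 3.

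Only Atp6v1c2, a V1 stalk subunit that is best known from the lung and kidney, was higher on IC in all 6 pairs of arrays. Its signal was 5.28, 5.44 and 4.79 on IC and 5.06, 5.39 and 4.54 on the control surface in Card9-/- neutrophils. In wild-type neutrophils it was 5.39, 5.58 and 4.82 on IC, against 5.19, 5.39 and 4.59 on the control surface. The mean response was 0.19 ± 0.06 (adjusted p = 0.456), at a signal below that of the median cluster.

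Of the cathepsins, Ctsz was higher on IC in all 3 experiments in wild-type neutrophils, by 0.39 ± 0.16 (adjusted p = 0.49), while its response in Card9-/- neutrophils was 0.08. Ctsl was higher on IC in all 3 experiments in Card9-/- neutrophils, by 0.30 ± 0.15 (adjusted p = 1.00), and by 0.20 without experiment 3. Ctsr, a placental cathepsin at a low signal here, was lower on IC in wild-type neutrophils, at 5.07, 4.62 and 3.98 on IC against 5.23, 5.22 and 4.15 on the control surface (difference -0.31 ± 0.12, adjusted p = 0.469, and -0.17 without experiment 2). Ctse was lower on IC in all 6 pairs, by 0.32 in the mean of both genotypes, and Ctsh by 0.14. In all, 7 genes were lower in all 6 pairs (17.9%, beside 3.62% of all clusters) and 1 was higher (2.56%, beside 3.1%). The 28 brighter genes held 6 of the 7, or 21.4%, beside 6.43% of clusters above the median brightness.

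Within a genotype, 11 genes were lower on IC in all 3 experiments and 4 were higher, in Card9-/- and in wild-type neutrophils alike. That is 28.2% and 10.3% of the 39 genes. All clusters gave 14.7% lower and 11.5% higher in Card9-/- neutrophils, and 12.3% lower and 18.8% higher in wild-type neutrophils. The 7 genes lower in all 6 pairs were Atp6v0a1, Atp6v0a2, Atp6v1b2, Atp6v1g2, Ctse, Ctsh and Ctsr.

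The IC difference of Ctsb in both genotypes and that of Ctsc in wild-type neutrophils had opposite directions in different experiments. In Card9-/- neutrophils Ctsb was at 10.06, 10.17 and 9.45 on IC, against 9.46, 9.66 and 9.56 on the control surface. In wild-type neutrophils it was at 10.71, 10.49 and 9.50 on IC, against 9.83, 9.84 and 9.87 on the control surface. Both genotypes thus had more Ctsb signal on IC in experiments 1 and 2 and less in experiment 3, and the mean response was 0.36 ± 0.15 (adjusted p = 0.53). Ctsc was at 7.91, 8.45 and 7.83 on IC in Card9-/- neutrophils, against 7.51, 7.86 and 7.42 on the control surface, higher on IC each time. In wild-type neutrophils it was at 8.52, 8.94 and 6.97 on IC, against 7.89, 8.27 and 7.26 on the control surface, with experiment 3 again in the other direction. Atp6v1a and the stalk subunit Atp6v1c1 also lay higher on IC in experiments 1 and 2 and lower in experiment 3 in both genotypes.

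**Figure D3:**
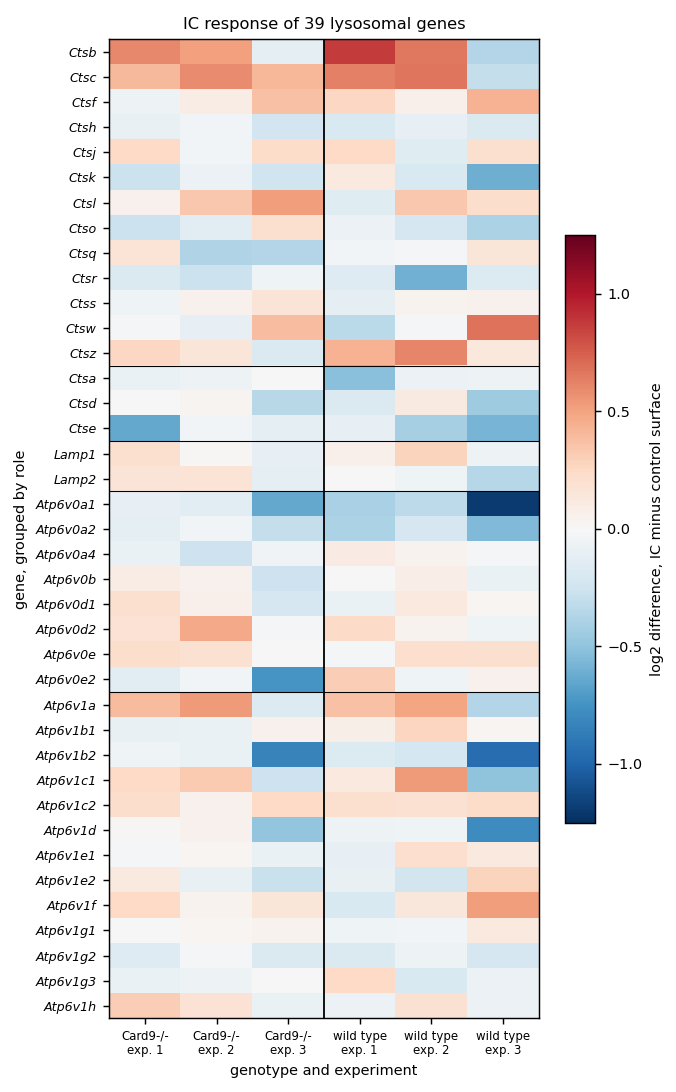
Log2 difference between IC and the control surface (colour scale, red for higher on IC) for each of the 39 genes (rows, grouped by role) in Card9-/- and wild-type neutrophils in experiments 1, 2 and 3 (columns). The columns of experiment 3 differ from the others in both genotypes, with Ctsb, Atp6v1a and Atp6v1c1 blue there and red elsewhere, and with the deepest blue for Atp6v0a1 in wild-type neutrophils at -1.20.

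No gene of the list showed a genotype difference of the IC response past the threshold, which 0% of all clusters passed, and none had an unadjusted p under 0.05, beside 3.68% of all clusters. This difference was -0.31 ± 0.23 for Ctsz, negative in all 3 experiments, which corresponds to its response of 0.08 in Card9-/- and 0.39 in wild-type neutrophils (adjusted p = 0.999). For Atp6v0a1 it was 0.35 ± 0.25, positive in all 3 experiments (adjusted p = 0.999). Atp6v0a2 gave 0.24 ± 0.18 (adjusted p = 0.999) from the cluster used and -0.28 from its other cluster. The comparison of the genotypes on IC and the IC responses share the arrays on IC, so these values are not independent of each other.

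The experiment moved most of these genes more than genotype or surface did. For 31 of 39 genes the range of the experiment means exceeded the range of the group means, with a median range of 0.53 between experiments and 0.25 between groups. The mean was lowest in experiment 3 for 30 genes. After each array was set to a common median, 12 genes were lowest in experiment 3, and 32 of 39 still had the larger range between experiments. Atp6v0a1 had the widest range, with experiment means of 10.93, 10.58 and 8.54. Ctsz differed from this rule, with a range of 0.48 between experiments and 0.92 between groups. The counts were not made over all clusters, although whole arrays differed by experiment as well. Whether such counts are particular to these genes was not tested.

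The genes with the E-box in their promoter window were also described as a group. All 8 lay below 0 in Card9-/- neutrophils on IC (median -0.15), and 7 of 8 did so on the control surface (median -0.12). Of the 21 with a window that lacks the E-box, 15 lay below 0 on IC (median -0.07) and 17 on the control surface (median -0.10). Of all clusters, 53.6% lay below 0 on IC and 42.6% on the control surface. The 28 brighter genes of the list gave 71.4% on IC and 89.3% on the control surface. On IC relative to the control surface, 6 of 8 genes with the E-box lay above 0 in each genotype, with medians of 0.08 in Card9-/- and 0.11 in wild-type neutrophils. The medians of the 21 others were -0.05 in Card9-/- neutrophils and -0.0048 in wild-type neutrophils. Of all clusters, 46.4% lay above 0 in Card9-/- neutrophils and 59.7% in wild-type neutrophils. These signs are those of means over the 3 experiments. Of the 8 genes with the E-box, only Ctsf was higher on IC in all 3 experiments in wild-type neutrophils. In Card9-/- neutrophils this held only for Ctsl. The others changed direction between experiments. No test compared the genes with and without the E-box. None of these genes except Ctsz, which has no E-box in its window, passed the threshold in any comparison.

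Among the lists of related genes, 3 genes passed the threshold in some comparison, an inhibitor, a hydrolase and a membrane protein. Of all clusters, 0.0104% passed in the mean IC response. In the genotype difference 0.529% passed in the mean of both surfaces and 0.162% on IC. Cstb, which encodes the cathepsin inhibitor cystatin B, was higher on IC in all 6 pairs, by 0.68 in the mean of both genotypes (adjusted p = 0.0196), the only gene so called in the lists examined. Its response was 0.60 in Card9-/- neutrophils and 0.76 in wild-type neutrophils. Cstb was also lower in Card9-/- neutrophils in all 6 pairs, by 0.43 (adjusted p = 0.0414). Of the 10 inhibitors measured, none passed in the other direction.

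Slc15a3, a peptide and histidine transporter of the lysosomal membrane, fell by 0.59 in Card9-/- neutrophils in the mean of both surfaces (adjusted p = 0.0223), as the only one of 21 other membrane proteins to pass. Of 34 other hydrolases and activators, Acp5 alone passed. This acid phosphatase fell by 0.96 in Card9-/- neutrophils on IC relative to wild type (adjusted p = 0.0494), and its IC response in wild-type neutrophils was 1.09 (adjusted p = 0.141). None of 12 genes listed as accessory and assembly factors of the pump passed in any comparison. Neither did any of 9 sorting genes or of 18 genes of the TFEB family and the Ragulator and Rag complexes. In the last list 13 of 18 lay below 0 in the mean over both surfaces, with a median of -0.18 (-0.21, -0.19 and -0.05 by experiment). The smallest p in that list was that of Rragd, a Rag gene, at -0.57 (adjusted p = 0.0658). Mitf, a relative of TFEB, differed by -0.34 (adjusted p = 0.22). Across all clusters the median was 0.01.

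**Figure D4:**
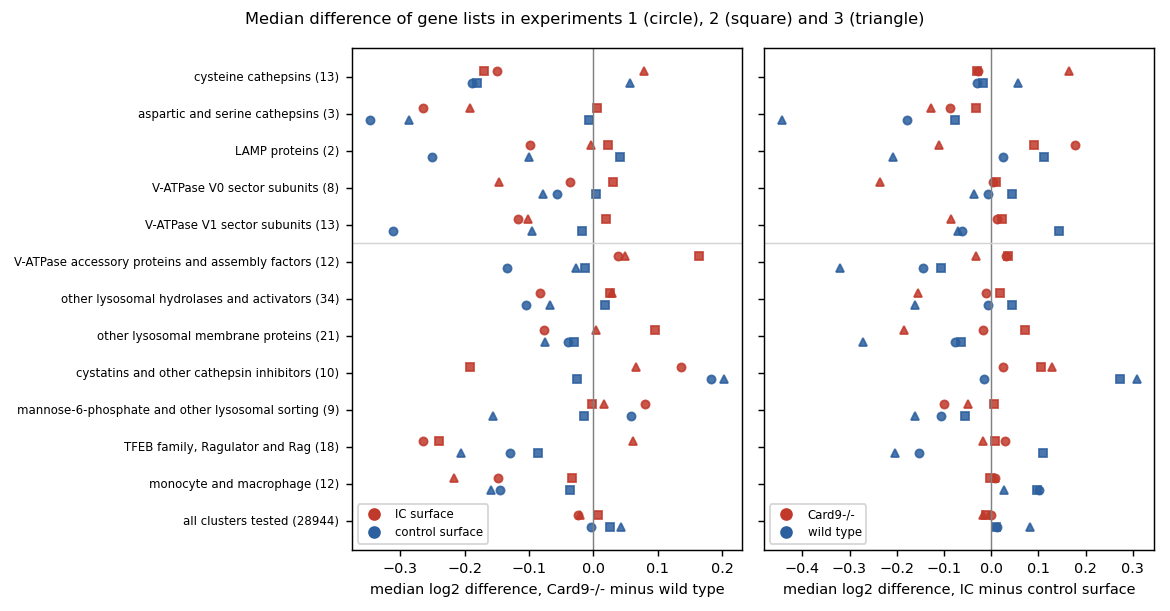
Median log2 difference (horizontal axes) of each role group of the 39 genes, of lists of related genes, of monocyte and macrophage markers and of all clusters, with the number of genes or clusters in parentheses. The left panel shows Card9-/- minus wild-type neutrophils on IC (red) and on the control surface (blue), the right panel shows IC minus control in Card9-/- (red) and wild-type (blue) neutrophils, and symbols mark the 3 experiments. The medians of most lists spread on both sides of 0 between experiments, and those of the monocyte and macrophage markers all lie below 0 on the left.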

How the data were processed

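The deposited table holds log2 signals per transcript cluster from 12 arrays. The steps by which the authors summarized and normalized these log2 values were not given in the sources used here. Gene names came from the platform annotation, and all 39 symbols were current in RefSeq. Of 35556 rows, 6612 read as control probe sets were left out and 28944 clusters were tested, with no filter on signal.

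A single limma fit (version 3.58.1, in R 4.3.3, lmFit and eBayes) covered the 4 groups, with the experiment as a fixed block, since the labels number the experiments and each holds all groups. In a check, deviations from the group means correlated at 0.671 to 0.867 between arrays of the same experiment and at -0.727 to 0.355 between arrays of different experiments. Two-sided p-values received a Benjamini-Hochberg adjustment across the clusters of each comparison, and the threshold was 0.05. The procedure was tested on simulated data. The block removes shifts that all 4 groups of an experiment share. P-values therefore measure how the differences between groups varied from experiment to experiment. The mice of the experiments are not described separately.

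Every gene past the threshold was named, and otherwise, per comparison, the 3 genes with the smallest p and the same direction in every experiment, along with genes whose experiments disagree, which were picked after their values were seen. Members and lists were chosen with earlier results of these data known. The alternatives were median centring, quantile normalization, no block, a random block, a restriction to the brighter clusters, robust and trended eBayes, a factorial model without moderation, only the arrays compared and leaving out each experiment. Tables were made in Python 3.11.15 with pandas 2.3.3, and figures with matplotlib 3.10.9.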

Additional observations from a re-analysis of the deposited data

How the results depend on the processing

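The genes named by their p-values had the same direction in every experiment, so leaving out an experiment could not reverse them. Alternatives that change only the model or the clusters fitted leave the difference itself as it was. Only median centring and quantile normalization could therefore have reversed a direction. None of these genes changed direction, in the comparison that named them, under the alternatives run. Genes named after their values were seen are not covered by this, and the mean genotype difference of Ctsc was 0.03 without experiment 1, against -0.14 with all experiments. The median IC response, at -0.03 in Card9-/- neutrophils, 0.02 in wild-type neutrophils and 0.02 in their mean, changed sign under some of them, by less than its spread between experiments. Of the counts of genes past the threshold, 75 of 84 stayed the same. Most of these were 0 in the main fit, so they could only rise. Where a comparison uses all 4 groups, the fit to only the arrays compared is the main fit itself. Of the medians, 82 of 84 moved by less than their spread (SD) between experiments. Of 248 values of named genes, 240 kept their direction and their side of the threshold, although their sizes moved. The IC response of Atp6v0a1 in wild-type neutrophils, for example, ranged from -0.80 to -0.37 when an experiment was left out. The count for the mean genotype difference was 1 with the experiment as a block (pairing the arrays). Without the replicate block it was 0 (Ctsz -0.69, adjusted p = 1.00), with quantile normalization 0 (Ctsz -0.73, adjusted p = 0.0592) and in the factorial model without moderation 0. Leaving out each experiment gave 0 to 2 genes, where the 2 were Ctsz and Ctsc without experiment 3. On IC alone the count was 0, and it was 1 with a random block (Ctsz adjusted p = 0.0309), 1 with only the arrays compared (0.047) and 0 to 1 when an experiment was left out (0.0344 without experiment 3). For the control surface, the IC responses and their genotype difference it was 0 under every alternative run. Over all clusters, the count for the mean genotype difference was 153, against 3 without the block, 100 with median centring, and 39, 9 and 204 without experiments 1, 2 and 3. The median genotype difference of the IC response was 0.03, 0.10 after median centring and 0.061 in clusters above the median mean. With 3 arrays per group and 12 in all, small differences could not be told from their own variation between experiments.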
